A study of Mus musculus with 8 samples.

Results

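Prox1, Myt1, Myt1l, St18, Insm1, Nhlh1, Nhlh2, Neurog2 and Neurod4 are 9 transcription factor genes of neurogenesis, among 16593 genes with a probe on the array. They were listed by name, and selected on earlier measured neuron against stem cell differences of these same arrays, in which Prox1 and Myt1 stood near the top, so their differences between the groups are given as a description and without a test. Together they have 13 of the 25697 probes, and every one of these probes is accounted for. The study asks how early neurons differ from the neural stem cells (NSCs) they come from. In it, 5 NSC samples stand against 3 neuron samples, all of strain C57BL/6. The NSCs were made from mouse embryonic stem cells in monolayer culture and grown in Euromed-N medium with N2, FGF2 and EGF. For the neurons, NSCs differentiated in serum-free N2B27 medium for 4 days, went on after replating in Neurobasal plus B27, and were sorted for the red fluorescent protein RedStar under the Tau promoter. The labels mark the NSC samples as without Tau-RedStar expression.

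Proneural factors such as Neurog2 are basic helix-loop-helix (bHLH) proteins that pair with E proteins, bind E-box sequences and commit a progenitor to the neuronal fate. They switch on the Notch ligand gene Dll1 and a cascade of later factors, among them Neurod4, Nhlh1, Nhlh2 and the zinc finger gene Insm1, while Notch signalling in neighbouring cells represses them through Hes genes. Myt1, Myt1l and St18 form the Myt1 family of zinc finger factors, which repress progenitor and non-neuronal genes. Prox1 is a homeodomain factor related to fly prospero that promotes exit from the cell cycle, and in the mouse brain it marks granule neurons of the dentate gyrus and a class of cortical interneurons. Prox1 and Myt1 are also expressed in the oligodendrocyte lineage.

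The 9 genes separated into those read above background and those not. A probe was called detected on an array at a detection p, the share of negative control probes brighter than it, below 0.01, and it was tested where it was detected on at least 3 arrays. Prox1, Myt1, Insm1 and Neurog2 passed this filter, and Myt1l, St18, Nhlh1, Nhlh2 and Neurod4 did not. Of the 13 probes 5 passed and 6 were detected on no array. All 4 genes that passed had every neuron array above every NSC array, which 33.2% of the 7407 tested genes also had (64.6% were called in either direction at a limma adjusted p below 0.05), and nothing is read from that count since the genes were listed with this contrast known. Neurog2 met the filter only because of its neuron arrays, which fixed its direction.

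**Figure D1:**
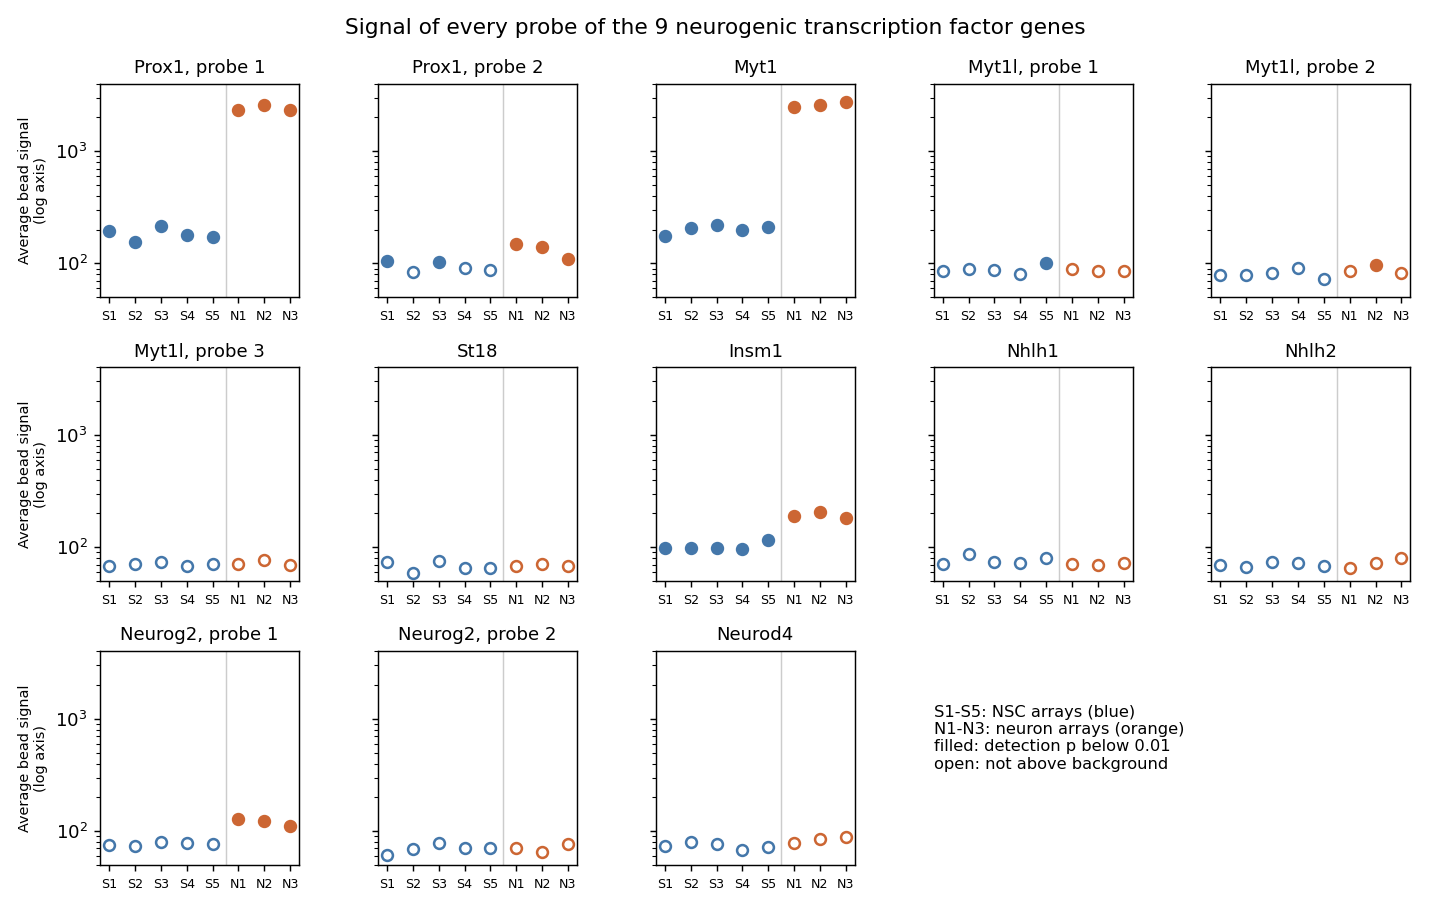
Average bead signal (log axis) of each of the 13 probes on the 5 NSC arrays (S1 to S5, blue) and 3 neuron arrays (N1 to N3, orange), with filled points for a detection p below 0.01 and open points for signals not above background; probes of 1 gene are numbered from the brightest. The brighter Prox1 probe and the Myt1 probe lie between 154.9 and 219.5 in NSCs and between 2333 and 2722 in neurons, and the probes of St18, Nhlh1, Nhlh2 and Neurod4 are open on all 8 arrays.

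Promoters from RefSeq (build GRCm38.p6, 250 bases before to 50 after a start site) were matched by symbol for 7 of the 9 genes. They are shown for Prox1 and Myt1, which had the largest differences of the 9 genes, and for Nhlh2, which was not detected, all in the direction of transcription. Capitals mark E-boxes (CANNTG, which includes CAGATG and CAGCTG) and the letters AAAGTT, a core of the sequence that Myt1 family proteins bind, each searched on both strands.
Prox1, first of 2 start sites, chr1:190170778-190171077, minus strand: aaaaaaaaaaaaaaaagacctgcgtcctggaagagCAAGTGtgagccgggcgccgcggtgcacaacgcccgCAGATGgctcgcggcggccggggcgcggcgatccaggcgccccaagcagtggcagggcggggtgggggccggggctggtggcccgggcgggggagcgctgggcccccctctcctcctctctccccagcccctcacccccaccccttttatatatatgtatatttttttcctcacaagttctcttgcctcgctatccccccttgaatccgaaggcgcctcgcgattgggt
Myt1, first of 3 start sites, chr2:181763082-181763381, plus strand: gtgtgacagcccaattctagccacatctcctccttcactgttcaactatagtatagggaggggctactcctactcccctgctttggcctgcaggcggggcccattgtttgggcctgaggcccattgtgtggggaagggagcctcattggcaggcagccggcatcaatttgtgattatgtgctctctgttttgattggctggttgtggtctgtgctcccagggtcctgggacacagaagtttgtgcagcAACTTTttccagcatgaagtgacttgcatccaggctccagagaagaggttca
Nhlh2, chr3:102009895-102010194, plus strand: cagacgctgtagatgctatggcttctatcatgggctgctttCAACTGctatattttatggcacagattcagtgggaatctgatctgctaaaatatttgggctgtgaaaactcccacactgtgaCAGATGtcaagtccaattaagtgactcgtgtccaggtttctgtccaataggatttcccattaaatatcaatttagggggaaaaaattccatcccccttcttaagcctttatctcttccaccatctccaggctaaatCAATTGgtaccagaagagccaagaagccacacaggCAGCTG

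The window of Prox1 shown holds 2 E-boxes, 1 of them CAGATG, a form known to be bound by neurogenins and NeuroD factors. The other Prox1 window holds none of these letters. The Myt1 window shown holds no E-box and 1 AAAGTT, on the opposite strand, while its other windows hold 2 and 1 E-boxes, none of them CAGATG. The last of these windows also holds 1 AAAGTT. The Nhlh2 window holds 4 E-boxes with 1 CAGATG and 1 CAGCTG among them. Across all 32851 promoters of the same length, 17.2% held CAGATG, 16.3% CAGCTG, 14.1% AAAGTT and 72.3% any E-box. The letters CAGATG also stood in the Nhlh1 window and in 3 of the 5 Myt1l windows, genes whose probes were mostly at background, and the single Neurog2 window held none of these letters. A match describes the sequence only.

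Prox1 lies at chr1:190118035-190170827 (GRCm38.p6) and has 2 probes, which the platform table pairs with the same transcript. On the brighter probe the signals were 195, 154.9, 216.1, 179.8 and 172.6 on NSC arrays 1 to 5, and 2352, 2595 and 2333 on neuron arrays 1 to 3. The groups were far apart, and NSC 3 was the highest and NSC 2 the lowest of the stem cell arrays. After background correction and quantile normalization the log2 level was 7.04 ± 0.22 (SD, n = 5 NSC arrays) and 11.12 ± 0.04 (SD, n = 3 neuron arrays), a difference of 4.08. Prox1 was above background on every stem cell array too, and its difference ranked 4 of the 5812 genes detected on all 8 arrays.

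The dimmer Prox1 probe gave a much smaller difference. Its signals were 104.4, 84.4, 104.0, 91.3 and 88.0 in NSCs and 147.7, 140.3 and 109.4 in neurons. Every neuron array was again above every NSC array, but neuron 3 exceeded NSC 1 by only a few units, and the probe was detected on all 3 neuron arrays and on NSC 1 and NSC 3 alone. The log2 level was 5.19 ± 0.34 (SD, n = 5 NSC arrays) and 6.07 ± 0.34 (SD, n = 3 neuron arrays), a difference of 0.88, or a 1.84-fold ratio against 16.9-fold on the brighter probe. Within the stem cells both probes put NSC 1 and NSC 3 highest, then NSC 4, NSC 5 and NSC 2 in that order. The neurons had no such shared order: neuron 2 was highest on the brighter probe and neuron 1 on the dimmer.

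The gap between the Prox1 probes was 3.20 on the log2 scale. Of the 1856 genes with more than 1 tested probe the median gap was 0.28, and 11 genes, or 0.593%, had a larger gap than Prox1. That the Prox1 probes disagree was known when the genes were listed, so the place of Prox1 here is a description only. Gaps were wider among genes with large differences: of 15 genes with several tested probes and a difference above 3 on the brightest, 3, Prox1 included, had a gap at least as large, and 6 had a gap under 1. Positions of the probes within the transcript were not analysed here, so whether they read different transcript ends was not tested. With the mean of both probes the Prox1 difference was 2.48.

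Myt1 lies at chr2:181763332-181827775 and has 1 probe. Its signals were 176.5, 206.8, 219.5, 197.4 and 212.4 on NSC arrays 1 to 5, and 2479, 2568 and 2722 on neuron arrays 1 to 3. NSC 1 was the lowest and neuron 3 the highest, and as for Prox1 the groups did not approach each other. The log2 level was 7.26 ± 0.15 (SD, n = 5 NSC arrays) and 11.24 ± 0.13 (SD, n = 3 neuron arrays), a difference of 3.98, which ranked 5, directly after Prox1, among the genes detected on all 8 arrays. Neither of its relatives had a probe detected on more than 1 array.

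Myt1l, a brain-restricted relative of Myt1 that is used in reprogramming of fibroblasts to neurons, lies at chr12:29527590-29923216 and has 3 probes, none of them tested. Its brightest probe read 81.3 to 100 in NSCs and 85.7 to 89.8 in neurons, and it was above background on NSC 5 alone. The next probe read 73.1 to 90.1 in NSCs and 82.4 to 96.2 in neurons and was above background on neuron 2 alone, and the last was detected on no array, at 67.9 to 73.3 and 70.1 to 76.4. The groups overlapped on all 3 probes, so no change of Myt1l could be seen at these signals, which also does not show that there was none. St18 lies at chr1:6487231-6860940, and its single probe was above background on no array, at 59.4 to 75.4 in NSCs and 67.7 to 70.3 in neurons.

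Insm1, at chr2:146221997-146225020, encodes a zinc finger repressor that promotes the formation of intermediate progenitors and neuronal delamination, and its probe was detected on all 8 arrays. Its signals were 97.8, 97.7, 99.0, 97.3 and 115.9 on NSC arrays 1 to 5, and 188.9, 207.6 and 182.4 on neuron arrays 1 to 3. NSC 5 stood above the other stem cell arrays but well below the neurons, and the groups did not overlap. The log2 level was 5.47 ± 0.23 (SD, n = 5 NSC arrays) and 6.95 ± 0.03 (SD, n = 3 neuron arrays), a difference of 1.48. It ranked 204 among the genes detected on all 8 arrays, and 4.77% of all tested genes had a larger positive difference.

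Neurog2, at chr3:127632733-127635636, was the only detected gene of the 4 members of the bHLH class. On its brighter probe the signals were 75.5, 73.1, 79.2, 78.3 and 76.4 in NSCs, none above background, and 128.5, 123.4 and 111.2 in neurons, all above background. Since the stem cell signals give only a bound, Neurog2 was at least 1.59-fold higher in neurons on background-corrected values (1.58-fold in the mean signals as deposited, which still hold the background), measured against the lowest level of any detected probe on each NSC array. The measured log2 levels were 4.53 ± 0.03 (SD, n = 5) and 5.87 ± 0.15 (n = 3), a difference of 1.34. Its dimmer probe was above background on no array, at 61.6 to 78.9 in NSCs and 64.9 to 77.4 in neurons, so the probes of this gene, too, did not give the same picture.

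The bHLH genes that act after the neurogenins were at background. Neurod4, at chr10:130268152-130280254, read 68.2 to 80.6 in NSCs and 78.0 to 88.0 in neurons; neuron 3 came closest to detection, with a detection p of 0.0213. Nhlh1, at chr1:172052292-172057596, read 71.4 to 86.2 in NSCs and 69.2 to 72.8 in neurons, and Nhlh2, at chr3:102010111-102015492, read 66.9 to 73.4 and 65.3 to 79.7. The groups overlapped for all 3 genes. A transcript below the array's background can still be present.

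**Figure D2:**
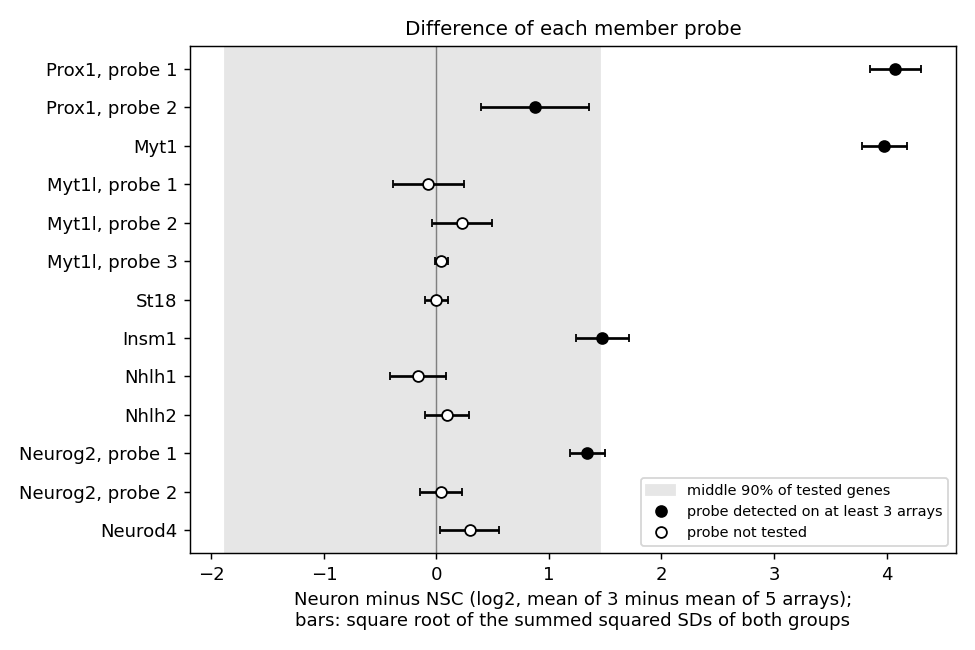
Neuron minus NSC difference on the log2 scale for each of the 13 probes, with bars for the square root of the summed squared SDs of the groups (n = 5 and 3), filled points for probes that passed the filter, and a grey band for the middle 90% of the 7407 tested genes (-1.88 to 1.45). The brighter Prox1 probe (4.08) and Myt1 (3.98) lie far to the right of the band, Insm1 (1.48) at its edge, and the dimmer Prox1 probe (0.88) and Neurog2 (1.34) inside it.

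The size of a difference depended on how the background was treated, more for the dim genes than for the bright ones. Without background correction the differences were 3.59 for the brighter Prox1 probe and 3.55 for Myt1, but 0.82 for Insm1, 0.61 for Neurog2 and 0.41 for the dimmer Prox1 probe. Across the other scalings the brighter Prox1 probe and Myt1 remained above the rest, and no alternative turned the direction of any of the 5 tested probes. Nothing is read from these directions, since the genes were listed with this contrast known and the filter had fixed that of Neurog2. Leaving out 1 array kept the differences at 4.01 to 4.14 for the brighter Prox1 probe, 3.91 to 4.04 for Myt1, 1.43 to 1.58 for Insm1 and 1.24 to 1.39 for Neurog2. For the dimmer Prox1 probe the range was 0.719 to 1.05.

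**Figure D3:**
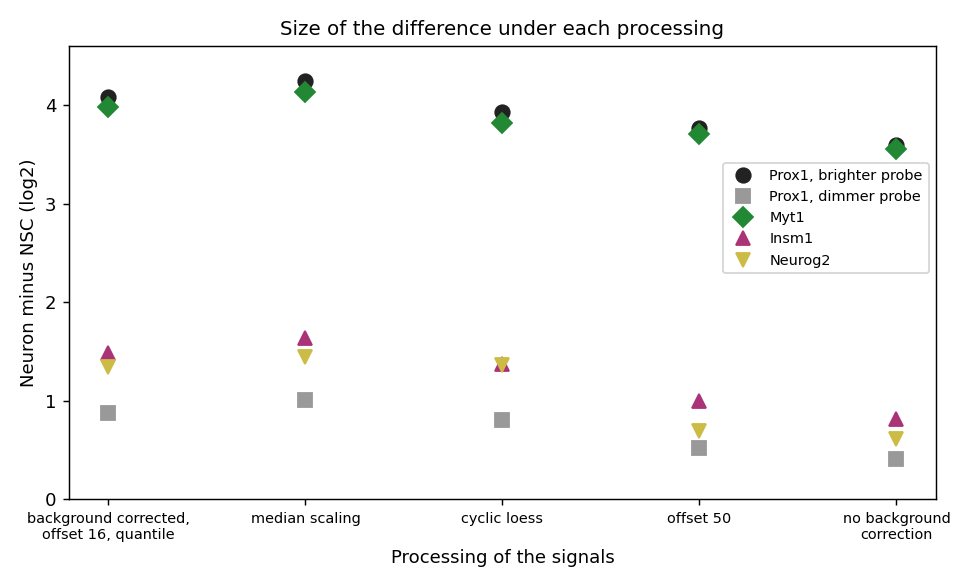
Neuron minus NSC difference (log2) of the 5 tested probes under 5 ways of processing the signals, 1 symbol a probe. The brighter Prox1 probe and Myt1 stay between 3.55 and 4.24, while the dimmer Prox1 probe, Insm1 and Neurog2 lie at 0.41 to 1.64, lowest without background correction.

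Prox1 and Myt1 had a step of similar size between the groups, but not the same order of arrays within them. With each profile centred on its own mean, the root mean square difference between Prox1 and Myt1 was 0.25 on the log2 scale, against a median of 1.95 between Prox1 and the other genes detected on all 8 arrays. In normalized log2 values NSC 2 was the lowest NSC array for Prox1 (6.77) and the highest for Myt1 (7.38). Neuron 2 was the highest neuron array for Prox1 (11.16) and the lowest for Myt1 (11.14). The genes closest to Prox1 were Slc24a3, a sodium/calcium exchanger gene (0.16), Omg, which encodes a myelin glycoprotein made by oligodendrocytes and neurons (0.21), and B3gat1, an enzyme gene of the HNK-1 carbohydrate (0.21). Those closest to Myt1 were Omg (0.14), Mcf2l (0.21) and Slc24a3 (0.22). The likeness was measured over 8 arrays in 2 groups and reflects mainly a difference of similar size, 3.59 to 4.37 in these 4 genes (2.32 for Mcf2l with the mean of its probes).

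The labels of the groups were set against marker genes. Of 10 neuron markers 6 were tested, 4 of which (Dcx, Mapt, Rbfox3 and Gap43) were above background on no NSC array on the probe used and so had to be higher. Map2 and Syp, the other two, were higher as well, where 35.4% of the tested genes were called higher at a limma adjusted p below 0.05 and 29.2% lower. Mapt, whose promoter drove the sort, was at least 17.1-fold higher on background-corrected values of the probe used, a direction that sort and filter had fixed. Its log2 difference was 4.64, or 3.09 without background correction and 2.99 with the mean of its probes, while Tubb3, Stmn2, Snap25 and Elavl4 were above background on no array. Of 10 NSC markers 6 were tested, of which 4 were lower and Nes, at -0.16, did not pass and stood at 0.05 with median scaling. Pax6, Sox1, Msi1 and Prom1 were above background on no array, in NSCs or neurons. Sox2 was higher by 0.37 (limma adjusted p = 0.0253), a call lost without neuron 1 (0.22, limma adjusted p = 0.131), without NSC 5 (0.32, limma adjusted p = 0.0537), with cyclic loess (0.31, limma adjusted p = 0.0525) and with the mean of its probes (0.27, limma adjusted p = 0.0885). Over all genes 2624 were called higher and 2164 lower, or 3297 and 1693 with median scaling, under which the typical gene stood at 0.23 in place of 0.06. The neurons were sorted in bulk, so fewer cells of a type and less RNA per cell cannot be told apart, and since all NSC arrays precede all neuron arrays on 1 chip, position, culture and sorting cannot be told apart from cell type. Arrays of a group correlated at 0.993 to 0.994 across probes, though NSC 5 was the lowest NSC array by a wide gap for Sox2, Nes and Tcf4.

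Markers of other cells that use Prox1 or Myt1 were read beside them. For the counts that follow, 35.4% of all tested genes were called higher and 29.2% lower. Of 15 oligodendrocyte lineage markers 12 had a probe and 9 were tested, of which 6 were higher in neurons, 1 was lower and 2 did not pass. Among those detected in both groups, Cnp rose by 1.26, Olig2 by 0.85, Olig1 by 0.51 and Bcas1 by 0.24. Opalin fell by 0.77, and Sox8 and Cspg4 did not pass. Olig1 and Bcas1 were the brightest, at 13.30 and 13.45 in NSCs and 13.82 and 13.69 in neurons (log2). Gpr17, a receptor of committed precursors, and Pdgfra, the growth factor receptor of early precursors, met the filter only by their neuron arrays and were at least 8.25-fold and 4.04-fold higher on background-corrected values. Without background correction their log2 differences were 2.39 and 1.37, whereas Mbp, Mog and Enpp6 were above background on no array. The summed signal of this list was 22261 to 26293 on NSC arrays and 29714 to 31004 on neuron arrays, and its part in the Prox1 and Myt1 values was not tested. Of 10 astrocyte markers 7 were tested, of which 5 were lower and 1 was higher, 2 of the tested genes passing through the NSC arrays alone, with a summed signal of 20320 to 22471 in NSCs and 5893 to 6946 in neurons. The brightest of them was Slc1a3, at 13.77 in NSCs and 11.95 in neurons (log2), while Gfap and Aqp4 were above background on no array. None of the 8 pancreatic endocrine markers with a probe was above background on any array, and of the 8 endothelial and lymphatic markers only Kdr was tested and did not pass, at -0.05 (limma adjusted p = 0.832). Of 8 pluripotency markers 3 were tested, 2 of them through the NSC arrays alone, and 2 were lower in neurons, with Pou5f1 and Nanog at background.

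Other genes of the neurogenic pathway were tested in the same limma fit over all genes. Of 15 other proneural and neuronal bHLH genes 13 had a probe, and Neurog1, Neurog3, Neurod2, Neurod6 and Atoh1 were among those above background on no array. Only Tal1, a bHLH factor of blood and of some inhibitory neurons of the midbrain and spinal cord, was tested. It was above background on the 3 neuron arrays and no NSC array, which fixed its direction, and it was at least 5.70-fold higher on background-corrected values (limma adjusted p = 7.07e-10; a log2 difference of 3.19, or 1.82 without background correction). Without any 1 of the neuron arrays Tal1 no longer reached the filter.

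The partners and inhibitors of these factors were largely detected. Of 6 E protein and Id genes tested 5 were higher and 1 was lower (35.4% and 29.2% of all tested genes were called higher and lower). Their median difference was 1.15 against 0.06 over all genes (0.95 with Id4, which passed through the neuron arrays alone, set at its bound). The E protein gene Tcf12 rose by 1.32 (limma adjusted p = 2.58e-05) and Tcf4 by 0.99 (6.93e-06). Id proteins bind E proteins and block bHLH dimers, and Id4 was at least 1.87-fold higher on background-corrected values and Id2 rose by 1.56 (limma adjusted p = 2.58e-06), while Id3 fell by 1.42 (limma adjusted p = 0.00011). Without background correction the log2 differences were -0.81 for Id3 and 0.78 for Id4. Without neuron 1 or neuron 2 only 5 of the genes were tested and 3 were higher. Id1 was close to the threshold, at 0.51 (limma adjusted p = 0.0457). The count of higher genes was 4 with cyclic loess, with no filter on dim probes, and without NSC 1, NSC 2 or NSC 5.

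The Notch list left out Dll1, Dll3 and Mfng, which were listed with the proneural targets and were higher. In the Notch list more genes were lower than higher. Of 15 genes 9 were tested, of which 5 were lower, 2 were higher and 2 did not pass (29.2% of all tested genes were called lower and 35.4% higher), with a median of -0.84, or -0.40 with Lfng, which passed through the NSC arrays alone, at its bound. The receptor gene Notch3 went from 8.30 ± 0.13 (SD, n = 5) to 5.02 ± 0.14 (n = 3), a difference of -3.28 (limma adjusted p = 6.47e-10), and Hes1, a repressor of proneural genes, fell by 2.30 on the log2 scale (limma adjusted p = 7.55e-08). Maml1, a coactivator of Notch, rose by 0.68 (limma adjusted p = 0.00899), or by 0.38 without neuron 2 and 0.30 without background correction. Notch1, which Prox1 is known to repress, did not pass, at 0.56 (limma adjusted p = 0.0505). It did under 8 of 10 other settings, among them no background correction (0.44, limma adjusted p = 0.0196) and median scaling (0.79, limma adjusted p = 0.00697). The authors' values, which equal those without background correction, are counted among the 8 as well. Notch1 also passed without NSC 4 or NSC 5 (limma adjusted p = 0.0422 and 0.0162). It was not lower under any of them, and the Notch3 difference was -2.05 without background correction.

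Known targets of proneural factors were higher in neurons where they passed the filter. All 7 of the 14 genes that did so rose (35.4% of all tested genes were called higher), by a median of 1.04 (0.92 with bounds), and Dll3 and Mfng among them passed through the neuron arrays alone. With no filter on dim probes all 14 genes were tested, of which 7 were called higher and 1 lower. Among the settings with a filter, Cbfa2t2, a corepressor gene in this list, was tested only where 1 neuron array was left out and detection on 2 arrays sufficed. It was then lower. The stress and cell cycle gene Gadd45g went from 9.82 ± 0.13 (SD, n = 5) to 12.30 ± 0.23 (n = 3), a rise of 2.48 (limma adjusted p = 1.85e-08), and the Notch ligand gene Dll1 rose by 2.37 (limma adjusted p = 5.83e-08). Dll4, Srrm4, Elavl3 and Elavl4 were above background on no array.

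Other transcription factor genes of new neurons were mixed in detection as the 9 genes were. Of 28 genes 24 had a probe and 13 were tested, of which 9 were higher, 2 were lower and 2 did not pass (35.4% and 29.2% of all tested genes were called higher and lower), with a median of 0.51. Sox4 and Pou4f1 passed through the neuron arrays alone and Dlx1 through the NSC arrays alone, which fixed their directions. Pou4f1, a POU factor of sensory and some brain neurons, was at least 4.37-fold higher on background-corrected values (limma adjusted p = 2.63e-09; a log2 difference of 2.83, or 1.56 without background correction), and Bcl11b, a zinc finger factor of cortical and striatal projection neurons, rose by 2.68 (limma adjusted p = 1.12e-07; 1.77 without background correction). Pou3f1 fell by 2.87 on the log2 scale (limma adjusted p = 4.94e-09). Tbr1, Eomes, Isl1, Scrt1 and Insm2, the closest relative of Insm1, were above background on no array. The count of called genes was 7 without neuron 2, with 5 higher and 2 lower among 11 tested.

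The corepressor genes whose products work with Insm1 and the Myt1 family showed no common direction. Of 9 tested genes 3 were higher, 3 lower and 3 did not pass (35.4% and 29.2% of all tested genes were called higher and lower). Their median was -0.21, and with median scaling 4 were higher and 2 lower. Rcor2, a CoREST scaffold gene, rose by 0.93 (limma adjusted p = 9.95e-05; 0.51 without background correction), and the histone demethylase gene Kdm1a rose by 0.45 (limma adjusted p = 0.0128), a call lost without neuron 3 (0.36, limma adjusted p = 0.0664). Hdac2, at 0.35 (limma adjusted p = 0.0212), lost its call there too (0.31, limma adjusted p = 0.0807), which left 1 gene higher and 3 lower. Hmg20b, a subunit of the Kdm1a complex, fell by 1.57 (limma adjusted p = 5.08e-07) and the histone deacetylase gene Hdac1 fell by 0.59 (limma adjusted p = 0.000221; -0.37 with median scaling). Sin3b, a known partner of Myt1 family proteins, was above background on no array.

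**Figure D4:**
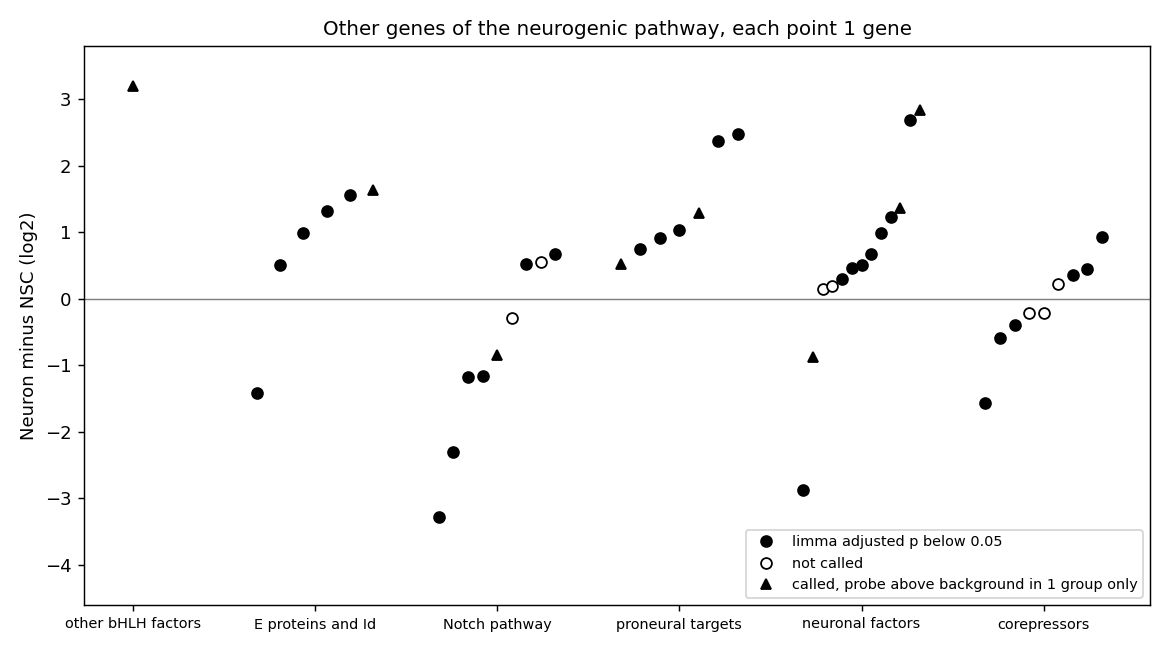
Neuron minus NSC difference (log2) of each tested gene in 6 lists of the neurogenic pathway, filled where the limma adjusted p was below 0.05 and as triangles where the probe was above background in 1 group only. All 7 proneural targets lie above 0, 5 of the 7 called genes of the Notch list lie below it, and the corepressors lie on both sides.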

How the data were processed

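The authors deposited, per the file headers, the average bead signal of each probe (an intensity, not scaled between arrays) and a detection score (a fraction from 0 to 1), of which 1 minus the score served as detection p. Their deposited log2 values equalled quantile-normalized log2 signals without background correction, to within 5e-09, and the submitters' processing notes name limma. No source used here names the scanner software.

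The function neqc of limma 3.58.1 (R 4.3.3) was run with the detection p and an offset of 16, which shrinks differences of dim probes. The 10499 of 25697 probes detected on at least 3 arrays were fitted with lmFit and eBayes with group as the only term, and p-values were Benjamini-Hochberg adjusted over these probes (threshold 0.05). The brightest tested probe stood for its gene. The platform table names 1 gene for 23978 probes and none for 1719, and RefSeq changed 0 symbols. For a probe above background in 1 group only, the bound divides the bright group's mean by the dim group's, in which each array counts with the lowest level it detected for any probe, or with this probe's level where that is higher. Depth does not apply; the number of arrays limits precision, and as nothing labels the replicates as separate cultures, p-values cover sample spread that could be technical.

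Members and lists were chosen with earlier results of these data known. The genes named were all members, in each list the 2 called genes that changed most in the majority direction and the 1 that changed most the other way, the 3 genes most like Prox1 and most like Myt1, and Mapt; others were named after their values were seen. The procedure was also run on simulated signals, with changes put only into probes detected in NSCs. That run does not cover probes above background in neurons alone. Alternatives were no background correction, an offset of 50, median scaling, cyclic loess, the authors' values, other filters, a trended robust variance, a replicate block, the mean of a gene's probes and leaving out each array.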

Additional observations from a re-analysis of the deposited data

Results flagged for a closer look

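In 5 of 42 sets of values checked, 1 array lay far from the others of its group, where chance gives about 1 in 20. Among the 5 NSC arrays Bcl11b was high on NSC 3, at a log2 level of 6.12 with the next array at 5.50, a gap of 0.808 of the group's range. In the others it was NSC 5, low for Tcf4 at 12.52 with the next array at 12.76 (gap 0.733), Sox2 at 8.43 with the next at 8.66 (gap 0.749) and Nes at 8.65 with the next at 9.25 (gap 0.755), and high for Dcx, not above background there, at 4.56 with the next at 4.37 (gap 0.821). Tcf4, Sox2, Nes and Dcx were added to the genes checked after their values were seen. Without NSC 5 the Sox2 difference was 0.32 (limma adjusted p = 0.0537).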

How the results depend on the processing

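The count of called genes over the whole array, 4788, lay between 3796 and 4990 under the other settings, with 4100 to 4665 when 1 array was left out. With detection required on all 8 arrays 0 other bHLH genes and 7 other transcription factor genes of new neurons were called, since fewer genes were tested. Leaving out 1 array gave 0 to 1 and 7 to 11 in these lists. The values of 0 came without neuron 1, 2 or 3, where the filter removed Tal1, which was called again with detection required on 2 arrays, chosen after seeing the data. Same-numbered samples did not deviate together (correlations of -0.02, -0.004 and 0.01, and 0 of 6 samples correlated best with their own number). With so few samples this cannot exclude pairing by number. With the replicate number as a block 4332 genes were called, and of the named genes Sox2 lost its call (0.32, limma adjusted p = 0.108) and Notch1 gained one (0.81, limma adjusted p = 0.00106). Among the named genes the direction turned only for Nes and Kdr, neither called under any of these settings: Nes stood at 0.0515 with median scaling, and Kdr at 0.00841 with the block, -0.146 (without NSC 1) to 0.0975 (without neuron 2) when 1 array was left out, with 0.0232 without neuron 1. Where detection on 2 arrays sufficed the values without neuron 1 and 2 were the same, and Kdr stood at -0.277 without neuron 3. Probes near background limit what can be said of Myt1l, St18, Nhlh1, Nhlh2 and Neurod4.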
